A study of Homo sapiens with 4 samples.

Results

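The 35 genes described here encode the machinery that brings new proteins into the endoplasmic reticulum (ER) and attaches the first sugar chain to them. They were found by their symbols in the table of gene values, and all 35 of the 35 listed symbols were present among its 51740 rows. All of them had an adjusted p-value and so belonged to the 23333 tested genes, of which 15336 were protein-coding. By protein complex, 6 members belonged to the signal recognition particle (SRP), 2 to its receptor, 6 to the translocon and its accessory proteins, 4 to the translocon-associated protein (TRAP) complex, 5 to the signal peptidase and 12 to the oligosaccharyltransferase.

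Signal recognition particle binds the signal sequence as it leaves the ribosome and docks the ribosome at the ER through its receptor. The chain then passes through the SEC61 channel, signal peptidase removes the signal sequence, and oligosaccharyltransferase moves a preassembled glycan from a dolichol lipid to asparagines of the chain. Kidney-derived lines such as HEK293T use this route for their surface and secreted proteins. The mRNAs of many, though not all, of the route's own membrane subunits are themselves translated at the ER.

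RNA was measured in HEK293T cells, a human embryonic kidney line carrying the SV40 large T antigen, that had been crosslinked with formaldehyde. The cells received no other treatment that the labels name, and the libraries differed only in the fraction, with 2 nuclear and 2 cytoplasmic libraries from independent biological replicates. For each library 400 ng of RNA was depleted of ribosomal RNA and sequenced as read pairs of 100 nt. Since every library started from the same mass of RNA, a gene's value is relative to the other sequenced RNA of that fraction. A change in the gene's amount per cell cannot be told apart from a change in the rest of the fraction. Cells were opened with the detergent NP-40 in a buffer without magnesium.

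The deposited table gives only a mean over all libraries, a fold change and its error for each gene. Counts of the single libraries were worked out from those values, and exactly 1 set of whole counts fitted for 21814 of the tested genes (93.49%), including all 35 members. Over these genes the libraries held 13408090 to 21711440 counts. The table does not say which library carries which replicate number, so the libraries are called deeper and shallower here, and paired values below give the deeper library first. Normalized counts are counts divided by the library's size factor. Fold changes are cytoplasmic over nuclear, from the DESeq2 fit in the authors' deposited table, and a gene was called where the adjusted p-value did not exceed 0.01. The nuclear RNAs MALAT1 and NEAT1 were at -3.47 and -3.09 on this log2 scale. NEFL, a neurofilament gene known to be expressed in HEK293 lines, had a mean of 13195 normalized counts, while 6 markers of blood, liver, stromal and endothelial cells had means of at most 6.22. NEFL was the highest of 5 genes described in HEK293 lines at 2.85, and PAX2, a kidney transcription factor with a mean of 63.1, was the lowest at -2.77. Of the other markers 3 were tested, from 0.65 for DCN to -1.25 for PECAM1, and none was called.

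Most of the machinery was higher in the cytoplasmic fraction. Of the 35 members, 27 were called cytoplasmic, 3 were called nuclear and 5 were not called. Among all tested genes 25.9% were called cytoplasmic and 26.5% nuclear, among protein-coding genes 35.6% and 28.4%, and among the 8856 protein-coding genes with a mean over 400, a level all members reached, 46.6% and 33.8%. The median log2 fold change of the members was 1.37, beside -0.12 for all tested genes, 0.11 for protein-coding genes and 0.27 for protein-coding genes with a mean over 400. The members ran from 3.46 for OST4 down to -1.78 for SEC61A2. The 2 fractions did not overlap for 33 of the 35 members, as was so for 88.8% of the 14891 protein-coding genes with recovered counts.

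On the deposited scale a cytoplasmic library held 28705052 normalized counts on average and a nuclear library 18136040. Setting these totals equal lowers every log2 fold change by 0.66. The members then had 21 cytoplasmic and 8 nuclear calls and a median of 0.71, with 16.2% of all tested genes cytoplasmic and 38.3% nuclear. Centring on the protein-coding median instead gave 27 cytoplasmic and 5 nuclear members, beside 24.2% and 28.4% of all tested genes. Either shift lowers every value and keeps its error. The 21 cytoplasmic members at equal totals were therefore bound to be cytoplasmic on the deposited scale. For the same reason neither shift could remove the call of the 3 nuclear members.

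**Figure D1:**
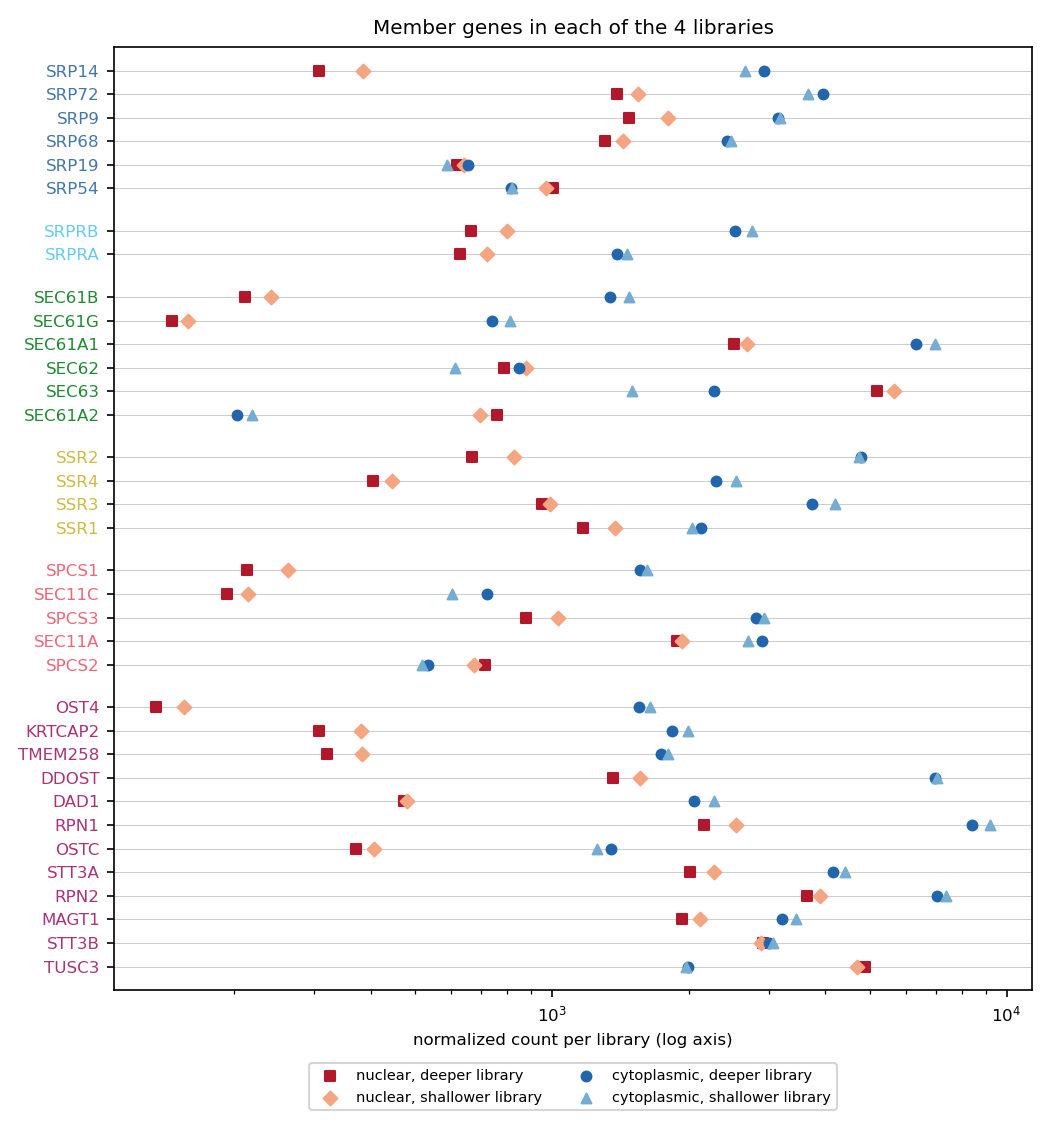
Normalized counts of the 35 members in each of the 4 libraries, on a log axis, grouped by protein complex and ordered by fold change within it. Each marker is a library. The 2 cytoplasmic markers stand to the right of both nuclear markers for most genes, to the left for SEC61A2, SEC63, TUSC3, SRP54 and SPCS2, and among them for SRP19 and SEC62.

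OST4 carried the largest cytoplasmic fold change of the members and had the shortest coding sequence. It encodes a single-helix subunit that stabilises the oligosaccharyltransferase. SEC61G, with the next shortest coding sequence after it, encodes the small gamma subunit of the SEC61 channel. Both coding sequences are shown because they are the shortest of the set and both mRNAs were called cytoplasmic. They were read from hg38 with the GENCODE 44 canonical transcript, run 5′ to 3′ on the minus strand of chr2:27070472-27071654 and chr7:54752250-54759974, and have the start and stop codons in capitals.
OST4: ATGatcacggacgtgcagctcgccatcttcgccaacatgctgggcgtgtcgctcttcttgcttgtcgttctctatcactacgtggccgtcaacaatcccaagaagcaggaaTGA
SEC61G: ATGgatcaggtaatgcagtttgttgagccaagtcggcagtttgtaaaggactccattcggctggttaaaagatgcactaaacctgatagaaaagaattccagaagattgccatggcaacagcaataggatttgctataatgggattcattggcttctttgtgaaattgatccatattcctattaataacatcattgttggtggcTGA

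The oligosaccharyltransferase genes had 10 cytoplasmic calls, 1 nuclear call and 1 gene not called among 12, with a median log2 fold change of 1.83. The enzyme exists in alternative forms. The subunits RPN1, RPN2, DDOST, DAD1, OST4 and TMEM258 are shared, the STT3A form adds KRTCAP2 and OSTC and works beside the translocon, and the STT3B form adds MAGT1 or TUSC3 and glycosylates sites that the first form skipped.

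All 6 shared subunits were called cytoplasmic, with a median log2 fold change of 2.22. OST4 stood at 135 and 156 normalized counts in the nuclear libraries and at 1555 and 1642 in the cytoplasmic libraries. The cytoplasmic libraries were far above the nuclear ones, an 11.02-fold difference, with a log2 fold change of 3.46 (SE 0.16) and an adjusted p-value of 6.51e-104 by DESeq2 in the authors' deposited table. RPN1, a large subunit that holds nascent glycoproteins near the active site, had the highest mean of all members. RPN1 had 2163 and 2546 nuclear and 8409 and 9212 cytoplasmic normalized counts. Its log2 fold change was 1.90 (SE 0.12), and the cytoplasmic level was 3.74-fold the nuclear one.

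RPN2, the partner of RPN1 in the same core, was the lowest of the shared subunits. Its normalized counts were 3651 and 3898 in the nuclear libraries and 7038 and 7376 in the cytoplasmic libraries, a log2 fold change of 0.93 (SE 0.11). The groups did not overlap, but the difference was 0.97 log2 units smaller than that of RPN1 (95% interval 0.66 to 1.29). With equal fraction totals RPN2 fell to 0.27 and no longer passed the threshold (adjusted p-value 0.0196, from the DESeq2 errors). TMEM258, DDOST, a subunit needed for the enzyme's stability, and DAD1, first described for its part in cell survival, lay between 2.18 and 2.33.

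The 3 genes of the STT3A form were all called cytoplasmic. KRTCAP2, a small subunit that links this form to the translocon, was at 2.48 (SE 0.15), with 309 and 382 nuclear and 1843 and 1992 cytoplasmic normalized counts. OSTC, which also joins the enzyme to the channel, was at 1.75 (SE 0.15). STT3A, the catalytic subunit, had 2011 and 2274 nuclear and 4165 and 4413 cytoplasmic normalized counts, a 2.00-fold difference at a log2 fold change of 1.00 (SE 0.12).

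The genes of the STT3B form had lower fold changes. STT3B, the other catalytic subunit, stood at 2909 and 2893 normalized counts in the nuclear libraries and at 3012 and 3068 in the cytoplasmic libraries. Its cytoplasmic libraries were only slightly higher, and the log2 fold change of 0.07 (SE 0.11) was not called (adjusted p-value 0.619 by DESeq2 in the authors' deposited table). MAGT1, an oxidoreductase of this form, was called cytoplasmic at 0.72 (SE 0.12), with 1939 and 2119 nuclear and 3217 and 3444 cytoplasmic normalized counts. With equal fraction totals STT3B moved to -0.59 and was called nuclear (adjusted p-value 1.70e-07, from the DESeq2 errors), and MAGT1 was not called at 0.05.

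TUSC3, the alternative to MAGT1 (chr8:15417215-15766649, plus strand), was the exception among the oligosaccharyltransferase genes. It had 4897 and 4681 normalized counts in the nuclear libraries and 1999 and 1979 in the cytoplasmic libraries. The nuclear libraries were 2.41-fold higher, with a log2 fold change of -1.27 (SE 0.11) and an adjusted p-value of 8.42e-30 by DESeq2 in the authors' deposited table. Of the 3 genes of the STT3B form, 1 was thus called cytoplasmic, 1 nuclear and 1 neither way, and their median was 0.07, beside 1.75 for the STT3A form. The same genes also differed in length, with canonical transcripts spanning 69.7 to 226 kb in the STT3B form and 3.90 to 30.2 kb in the STT3A form. Set against protein-coding genes of like span, the forms were in the opposite order. Their medians were 0.74 above those genes for the STT3B form and 0.52 above them for the STT3A form. The 0.74 is the value of TUSC3, whose group of like span is wide, and STT3B and MAGT1 were at 0.58 and 0.87.

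**Figure D2:**
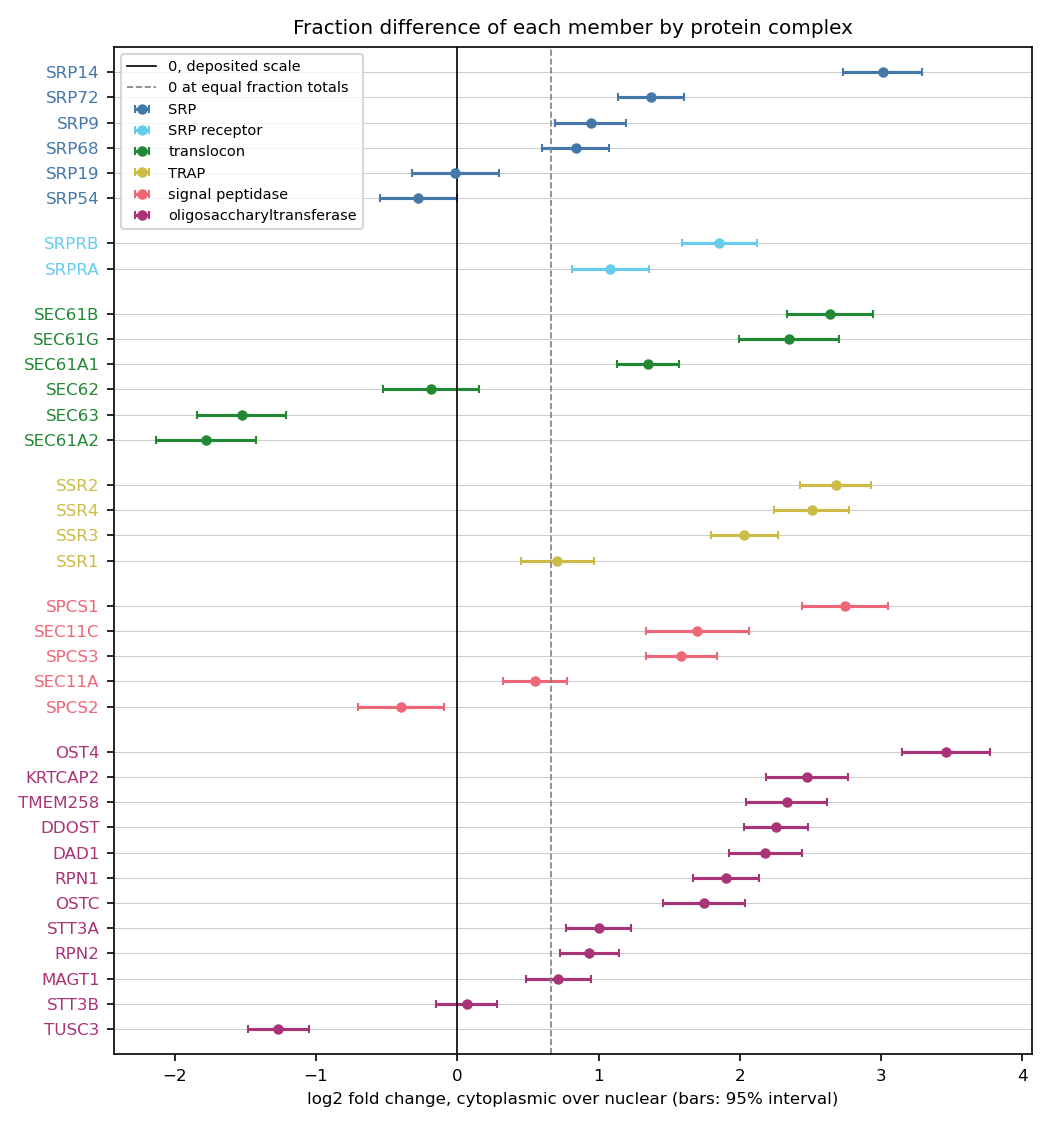
Log2 fold change of each member, cytoplasmic over nuclear, with its 95% interval from the DESeq2 standard error, coloured by protein complex. The solid line marks no difference on the deposited scale and the dashed line, at 0.66, no difference with equal fraction totals. The translocon genes lie from -1.78 to 2.64, the oligosaccharyltransferase genes from -1.27 to 3.46 and the TRAP genes from 0.71 to 2.68.

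The translocon genes were the most mixed in their calls, with 3 cytoplasmic calls, 2 nuclear calls and 1 gene not called among 6, and a median of 0.58 that became -0.08 with equal fraction totals. Of the channel's own subunits, SEC61A1 forms the pore, and SEC61B and SEC61G are small tail-anchored proteins beside it. SEC61B was at 2.64 (SE 0.16), with 212 and 242 nuclear and 1345 and 1478 cytoplasmic normalized counts. SEC61G was at 2.35 (SE 0.18), with 146 and 159 nuclear and 740 and 810 cytoplasmic normalized counts. These small subunits did not differ beyond their error, at 0.29 log2 units apart with a 95% interval from -0.18 to 0.76.

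SEC61A1 and SEC61A2 encode alternative forms of the pore subunit, and their mRNAs lay on opposite sides. SEC61A1 (chr3:128051641-128071705) had 2522 and 2690 nuclear and 6339 and 6972 cytoplasmic normalized counts, a log2 fold change of 1.35 (SE 0.11). SEC61A2 (chr10:12129637-12169961) had 759 and 696 nuclear and 204 and 220 cytoplasmic normalized counts, a log2 fold change of -1.78 (SE 0.18) with an adjusted p-value of 2.50e-22 by DESeq2 in the authors' deposited table. The cytoplasmic libraries were thus the higher ones for the first gene and the lower ones for the second, and the log2 fold changes were 3.13 apart (95% interval 2.72 to 3.55). Their coding sequences are of equal length, 1431 bases with the stop codon, and matched at 78.0% of positions, and both canonical transcripts have 12 exons. No 100-base window of either canonical transcript was found elsewhere in hg38. Introns and other exons were not searched. Per kilobase of spliced canonical transcript, the cytoplasmic level was 1865 normalized counts for SEC61A1 and 85.0 for SEC61A2. These counts include reads from introns, 8.36 kb in the first gene and 36.4 kb in the second, which this length leaves out. The values therefore cannot be read as levels of mature mRNA.

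SEC62 and SEC63 encode accessory proteins that open the channel for weaker signal sequences, and SEC63 recruits the lumenal chaperone BiP. SEC63 (chr6:107867756-107958208) had 5198 and 5672 normalized counts in the nuclear libraries and 2272 and 1499 in the cytoplasmic libraries. It was called nuclear at -1.53 (SE 0.16), with an adjusted p-value of 1.21e-20 by DESeq2 in the authors' deposited table. The cytoplasmic libraries differed from each other 1.52-fold, a larger ratio of the deeper over the shallower one than in all but 0.531% of 8671 protein-coding genes with a mean over 400. Leaving out each library in turn, limma-voom on the recovered counts placed SEC63 between -1.86 and -1.26.

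SEC62 showed the same split between cytoplasmic libraries. Its normalized counts were 787 and 877 in the nuclear libraries and 849 and 612 in the cytoplasmic libraries. The fractions overlapped, since the deeper cytoplasmic library lay between the nuclear ones, and SEC62 was not called at -0.19 (SE 0.17). Leaving out single libraries moved it from -0.44 to 0.03. With equal fraction totals it was at -0.85 and called nuclear (adjusted p-value 2.83e-06, from the DESeq2 errors).

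The TRAP complex, which assists the entry of some chains beside SEC61 and reaches towards oligosaccharyltransferase, had all 4 genes called cytoplasmic, at a median of 2.27. SSR2 led with 667 and 825 nuclear and 4790 and 4751 cytoplasmic normalized counts, a 6.40-fold difference at a log2 fold change of 2.68 (SE 0.13). SSR4 was at 2.51 (SE 0.14) and SSR3 at 2.03 (SE 0.12). SSR1 was the lowest, with 1172 and 1381 nuclear and 2131 and 2037 cytoplasmic normalized counts at 0.71 (SE 0.13). With equal fraction totals SSR1 was at 0.05 and not called, while the other 3 remained called.

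The signal peptidase genes had 4 cytoplasmic calls among 5, with a median of 1.59. SPCS1, a small accessory subunit, was the highest at 2.74 (SE 0.15), with 214 and 263 nuclear and 1565 and 1625 cytoplasmic normalized counts. SPCS3, a subunit needed for the activity of the enzyme, was at 1.59 (SE 0.13). The fractions were apart for both genes, and their values did not overlap.

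SEC11A and SEC11C are alternative catalytic subunits of signal peptidase. SEC11A had 1889 and 1937 nuclear and 2894 and 2709 cytoplasmic normalized counts, the lowest called cytoplasmic fold change of the members at 0.55 (SE 0.12). SEC11C had 194 and 215 nuclear and 720 and 606 cytoplasmic normalized counts at 1.70 (SE 0.19). SEC11A minus SEC11C was -1.15 on the log2 scale (95% interval -1.58 to -0.72). The fold change of SEC11A itself turned to -0.11 with equal fraction totals and was not called.

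SPCS2, a membrane subunit without catalytic activity, was the signal peptidase gene on the other side. It had 715 and 674 nuclear and 535 and 519 cytoplasmic normalized counts. The fractions did not overlap, yet the log2 fold change of -0.40 (SE 0.16) missed the threshold with an adjusted p-value of 0.0196 by DESeq2 in the authors' deposited table, and limma-voom on the recovered counts called it nuclear with an adjusted p-value of 0.00279. Of the 100-base windows in its canonical transcript, 32.6% were found elsewhere in hg38, mostly on chromosome 1, so reads of SPCS2 may be shared with copies.

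The SRP protein genes had 4 cytoplasmic calls and 2 genes not called among 6, with a median of 0.89. SRP14 and SRP9 encode the pair of proteins that pauses elongation. SRP14 (chr15:40035690-40039181) had 309 and 385 nuclear and 2925 and 2656 cytoplasmic normalized counts, an 8.06-fold difference at a log2 fold change of 3.01 (SE 0.14). SRP9 had 1479 and 1805 nuclear and 3140 and 3178 cytoplasmic normalized counts at 0.94 (SE 0.13). Although their products form a dimer, the log2 fold change of SRP9 minus that of SRP14 was -2.07 (95% interval -2.45 to -1.69). For SRP9, 36.8% of the windows of its canonical transcript were found elsewhere in hg38, mostly on chromosome 10, so its value is less certain. With equal fraction totals SRP9 was not called at 0.28.

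SRP72 and SRP68, which bind the SRP RNA together, were at 1.37 (SE 0.12) and 0.84 (SE 0.12), SRP68 minus SRP72 being -0.53 (95% interval -0.87 to -0.20). SRP54 is the GTPase that recognises the signal sequence, and SRP19 is needed to load it onto the RNA. SRP54 stood at 1007 and 972 nuclear and 816 and 819 cytoplasmic normalized counts, and -0.28 (SE 0.14) was not called. SRP19 stood at 618 and 641 nuclear and 655 and 590 cytoplasmic normalized counts, and its fractions overlapped at a log2 fold change of -0.01 (SE 0.16). With equal fraction totals SRP54 and SRP19 were at -0.94 and -0.68 and were called nuclear.

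The receptor genes were both called cytoplasmic. SRPRB, the membrane-anchored GTPase subunit, had 666 and 799 nuclear and 2536 and 2764 cytoplasmic normalized counts at 1.86 (SE 0.14). SRPRA, the subunit that meets SRP, had 630 and 720 nuclear and 1395 and 1466 cytoplasmic normalized counts at 1.08 (SE 0.14). SRPRA minus SRPRB was -0.77 on the log2 scale (95% interval -1.15 to -0.39).

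The RNA scaffold of SRP stood further to the cytoplasmic side than any of the SRP protein mRNAs. RN7SL1, a gene of this 7SL RNA, averaged 59007 normalized counts over the nuclear libraries and 1485690 over the cytoplasmic ones. These were 0.325% and 5.18% of the average library total of each fraction. Its log2 fold change was 4.65 (SE 0.37), with an adjusted p-value of 8.87e-35 by DESeq2 in the authors' deposited table. RN7SL1 has near-identical copies in the genome, so the assignment of its reads to this gene is uncertain.

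**Figure D3:**
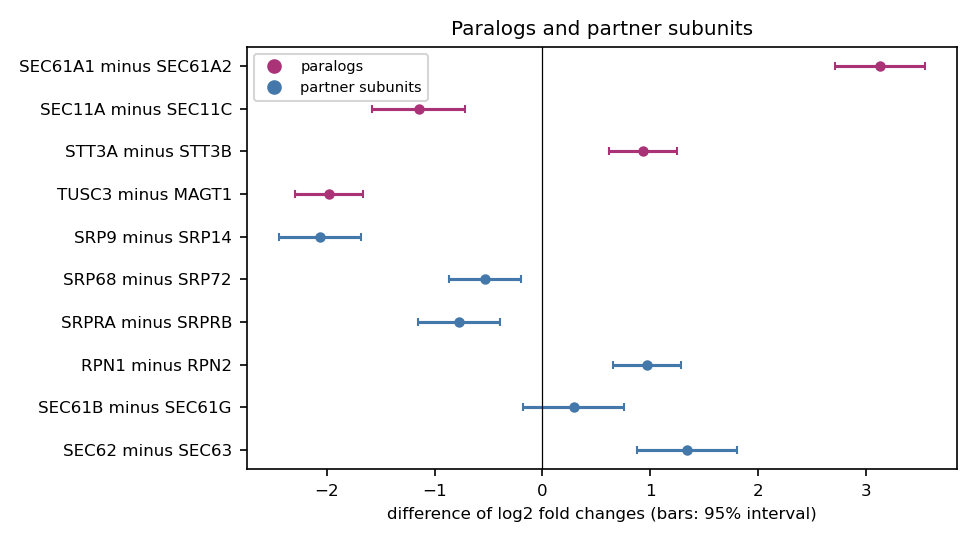
Differences between the log2 fold changes of 4 pairs of paralogs and 6 pairs of partner subunits, first gene minus second, with 95% intervals that take the errors of 2 genes as independent. A shift of the scale cancels in these differences. The interval includes 0 for SEC61B minus SEC61G and lies to a single side of 0 for the other 9 pairs.

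In 4 of the 4 pairs of paralogs the members were apart by more than their error. So were all partner pairs except SEC61B and SEC61G, so this was not particular to paralogs. How often any 2 genes of the table differ by more than their error was not tested. The largest separation was that of the SEC61A genes, followed by TUSC3 minus MAGT1 at -1.98 (95% interval -2.30 to -1.67), SEC11A minus SEC11C, and STT3A minus STT3B at 0.93 (95% interval 0.62 to 1.25). Coding sequences of these pairs matched at 66.1% of aligned positions for TUSC3 and MAGT1, 68.2% for SEC11A and SEC11C and 54.6% for STT3A and STT3B. In each pair of paralogs the gene with the longer canonical span had the lower fold change. The same held for the partner pairs SRP9 and SRP14, RPN1 and RPN2, and SEC62 and SEC63. In the partner pairs SRPRA and SRPRB, SRP68 and SRP72, and SEC61B and SEC61G the gene with the longer span had the higher value. SEC62 minus SEC63 was 1.34 (95% interval 0.88 to 1.81).

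Members with short genes were further to the cytoplasmic side. The Spearman correlation of log2 fold change with the span of the canonical transcript was -0.80 over the 35 members, and -0.76 over 8852 protein-coding genes with a mean over 400. It was -0.78 with intron length, -0.61 with coding length, -0.57 with the number of exons and -0.52 with exonic length. Genes are not independent replicates, and the authors counted intronic with exonic reads, so unspliced RNA is part of every value and cannot be separated in the table. The 11 members under 10 kb had a median of 2.48 and 10 cytoplasmic calls, the 17 members of 10 to 40 kb a median of 1.37 and 14 cytoplasmic calls, and the 7 longer members a median of 0.07 with 3 cytoplasmic and 2 nuclear calls. Protein-coding genes of the same span classes with a mean over 400 had medians of 2.21, 0.82 and -0.67, and 90.8%, 65.5% and 17.0% of them were called cytoplasmic. Nuclear calls were 0 of 11, 1 of 17 and 2 of 7 among the members, and 3.4%, 13.6% and 59.7% among those genes.

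**Figure D4:**
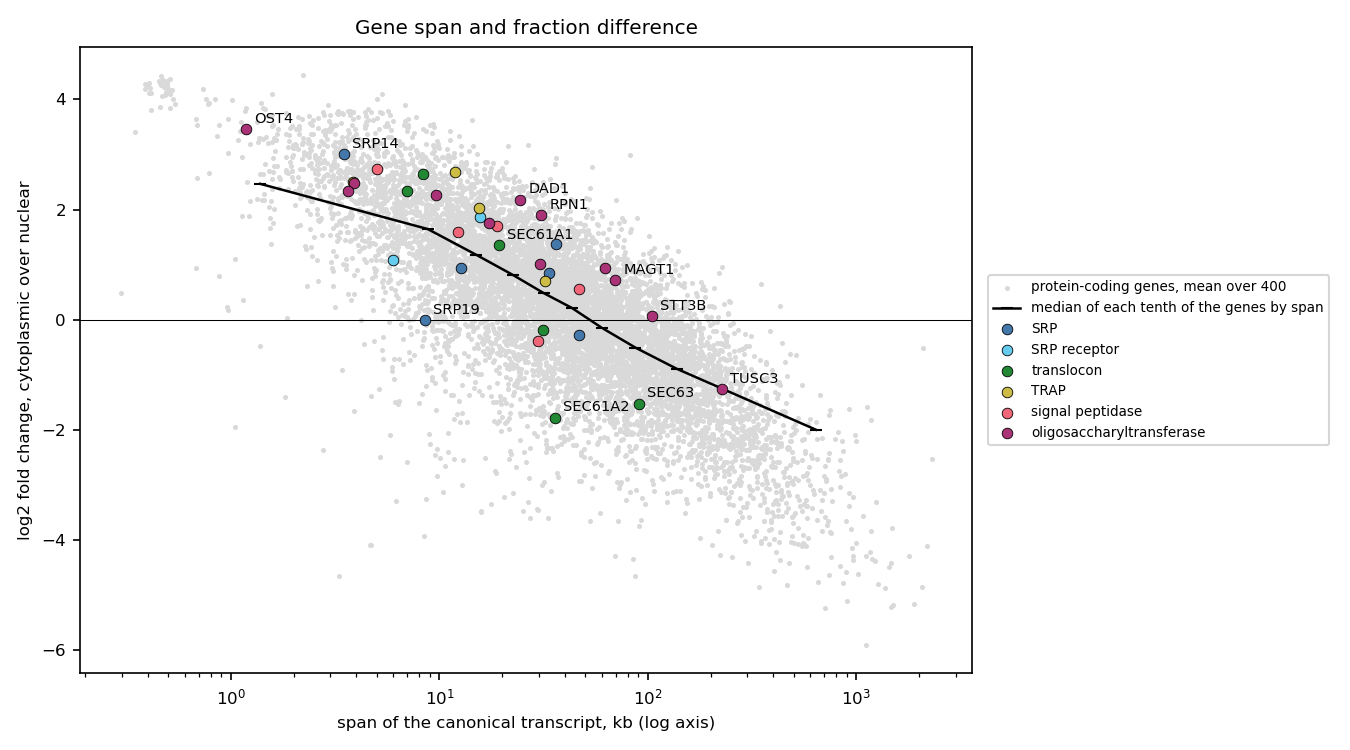
Log2 fold change, cytoplasmic over nuclear, against the span of the canonical transcript in kb on a log axis. Grey points are protein-coding genes with a mean over 400, the black line joins the medians of 10 equal groups of them by span, and coloured points are the members by complex. OST4 and SRP14 lie at the upper left, TUSC3 at the lower right, and SEC61A2 lies at -2.26 from the median of its group.

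Set against genes of like span, the members were spread on both sides. The protein-coding genes with a mean over 400 were divided into 10 groups by span, a division made after the members' values were seen, and 26 of the 35 members lay above the median of their group. Among the oligosaccharyltransferase genes 11 of 12 did, with TMEM258 as the exception at -0.14 from its group's median, and all 4 TRAP genes did. With all protein-coding genes as the reference, whatever their mean, 27 members lay above their group's median, among them all 12 oligosaccharyltransferase genes, with TMEM258 at 0.29. RPN1, with a canonical span of 30.9 kb, was 1.43 above its group's median of 0.48, and DAD1 was 1.37 above its group's 0.81. TUSC3, nuclear by its call, was still 0.74 above the median of the group with the longest spans. That group is wide, from 179012 to 2298757 bases, and TUSC3, at 226376 bases, lies near its short end. TUSC3, at -1.27, was below the median of the group with the next shorter spans, -0.90. On the other side SEC61A2 was the furthest below its group, at -2.26 from the median. SRP19, whose canonical transcript spans 8.502 kb, came next at -1.66. SRPRA, SEC63, SPCS2, SEC62, SRP54 and SRP9 were also below their groups, at -1.38 to -0.23 from the medians. SRPRA, the lowest of these, was at -0.25 with all protein-coding genes as the reference. Whole genes can span more than the canonical transcripts used for the groups. SRP19 spans 37.2 kb as a whole gene, and RPN1 61.1 kb. TMEM258 spans 24.3 kb against 3.65 kb for its canonical transcript, and SSR1 79.1 kb against 32.1 kb. The place of the members in groups by whole-gene span was not tested.

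Among other genes of membrane insertion, those of the ER membrane complex, the GET pathway and further partners of the SEC61 channel, 22 of 27 were called cytoplasmic and 1 nuclear, with a median of 1.49. The highest was TMEM147, a partner of the SEC61 channel, at 3.36 (SE 0.16), and the lowest was EMC2, a cytosolic subunit of the ER membrane complex, at -1.02 (SE 0.16). The calls of this list became 17 cytoplasmic and 3 nuclear and its median 0.83 with equal fraction totals. Beside this list and those that follow, 25.9% of all tested genes were called cytoplasmic and 26.5% nuclear. With equal fraction totals these shares were 16.2% and 38.3%. Lumenal chaperones had 11 cytoplasmic and 3 nuclear calls among 16, with a median of 0.89, and with equal fraction totals 7 and 5 calls and a median of 0.22. They ran from 3.14 for SDF2L1, a partner of BiP, to -1.85 for SIL1, its nucleotide exchange factor.

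The genes that build the glycan before its transfer were called in both directions. Of 24 genes of dolichol and glycan precursor synthesis, 12 were called cytoplasmic and 6 nuclear, with a median of 0.47, where 46.6% and 33.8% of protein-coding genes with a mean over 400 were called. ALG2, ALG11 and DPM3 of this list had means under 400, at 379, 303 and 199. The calls of the whole list were 8 cytoplasmic and 11 nuclear and the median -0.19 with equal fraction totals. DPM3, the small anchor of dolichol-phosphate mannose synthase, was the highest at 3.44 (SE 0.27), and ALG13, a subunit of an enzyme that extends the chain on the lipid, was the lowest at -2.09 (SE 0.12). DPM3 spans 0.64 kb and ALG13 79.5 kb. The genes acting after transfer, in glycan trimming and lectin-assisted folding, had 11 cytoplasmic and 2 nuclear calls among 15 and a median of 0.68. This list had 5 cytoplasmic and 4 nuclear calls and a median of 0.02 with equal fraction totals. LMAN2, a lectin of the secretory pathway, was at 1.70 (SE 0.12), and UGGT2, a folding sensor that adds glucose back, was at -3.14 (SE 0.12).

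**Figure D5:**
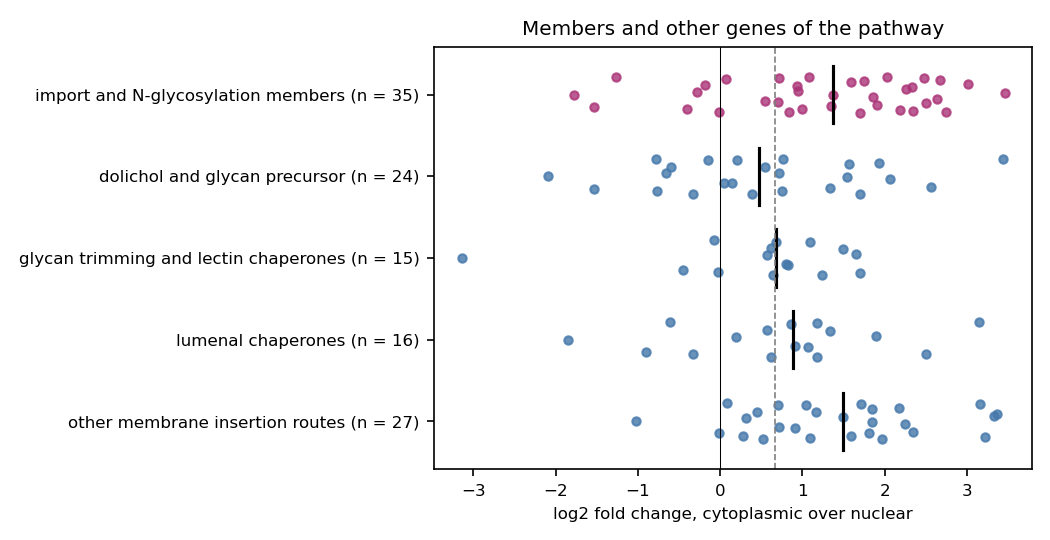
Log2 fold changes, cytoplasmic over nuclear, of the members and of the other genes of the pathway, a point for each gene with a small vertical offset for legibility. Thick bars mark medians, the solid line 0 and the dashed line 0 with equal fraction totals. The medians are 1.37 for the members and 0.47, 0.68, 0.89 and 1.49 for the lists below them.

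Single libraries were compared for the members. All 27 cytoplasmic members had a higher normalized count in the shallower than in the deeper nuclear library, with a median ratio of 1.14. Among 3963 protein-coding genes with a mean over 400 that were called cytoplasmic, 67.6% did, with a median ratio of 1.046. Of the 3 nuclear members 1 did, and 27.2% of 2982 nuclear genes. The result was measured without this library as well, by limma-voom on the recovered counts, which called the same 27 members cytoplasmic and the same 3 nuclear, with SPCS2 added. With all libraries it did likewise, beside 31.4% of the 21814 genes cytoplasmic and 32.8% nuclear. Without the shallower nuclear library these shares were 28.8% and 31.5%. They were 28.0% and 30.8% without the deeper nuclear library, 30.0% and 29.2% without the deeper cytoplasmic library and 30.2% and 29.7% without the shallower cytoplasmic library, and in each of these 3 fits the 27 cytoplasmic and 3 nuclear members were the ones called. Which libraries of the 2 fractions belong together is not known, so a block was fitted for either pairing, and both fits called the same 30 members. Over all genes 26.2% were then called cytoplasmic and 26.2% nuclear with the deeper libraries paired, and 32.6% and 33.8% with the deeper nuclear library paired with the shallower cytoplasmic one, a fit that also called SPCS2.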

How the data were processed

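Per the labels and the study's methods, reads were aligned with STAR to hg38, counted over exons and introns with featureCounts 2.0.2 on a custom GENCODE annotation, and compared with DESeq2. The deposited table holds, per gene, the authors' mean normalized count (a signal averaged over 4 libraries), log2 fold change, standard error, Wald score, p-value and adjusted p-value. These fold changes and adjusted p-values are the main result. The members and lists were chosen with earlier results of these data known. All members were named, and of each other list the genes with the highest and lowest fold change.

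Counts per library were recovered here by searching for whole counts that give the authors' mean to 10 digits and their log2 fold change within 1e-09. No set was found for 1324 tested genes, several sets for 1, and 194 genes with a mean over 10000 were not tried. Tested on simulated data, 298 of 300 genes were recovered and 0 wrongly. Size factors computed from the recovered counts differed from those of the search by at most 0.022%. Limma 3.58.1 (voom) was run on these counts as an alternative added after the data were seen. Gene structure came from GENCODE 44 on hg38, which is later than the authors' annotation. The authors removed regions where 2 or more genes overlap. In GENCODE 44 the spans of other genes cover much of the exonic length of some members. The shares are 100% for SSR2, 86.8% for SSR1, 65.2% for SRP19, 60.6% for SPCS1 and 58.3% for SEC61A1. How much of these genes the authors' annotation counted is not known. Intervals are 95% normal intervals.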

Additional observations from a re-analysis of the deposited data

How the results depend on the processing

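With only 2 libraries a fraction, replicate spread is estimated across genes. All 35 members kept their direction and side of the threshold without the low-count filter and with the added minimum of 0.5 on the log2 fold change and 50 on the mean. With the threshold at 0.05 SPCS2 was called nuclear as well (-0.40). With Bonferroni adjustment SEC11A (0.55) was no longer called. Centred on the protein-coding median, which lowers every log2 fold change by 0.11, 5 members were called nuclear, SPCS2 (-0.51) and SRP54 (-0.39) being added.

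Scaled to equal fraction totals, 8 members were called nuclear and 21 cytoplasmic. STT3B turned from 0.07 to -0.59 and SEC11A from 0.55 to -0.11, while MAGT1, RPN2, SRP68, SRP9 and SSR1 lost their calls. The medians became 0.71 for all members, 0.23 for SRP, 0.81 for its receptor, 1.61 for TRAP, 1.16 for oligosaccharyltransferase and 0.92 for signal peptidase, and that of the translocon turned to -0.0788. These changes follow from the shift of 0.66. Means weighted by inverse variance were 1.22 for all members, 1.98 for TRAP, 1.25 for oligosaccharyltransferase and 1.15 for signal peptidase. With a mean over 500 the signal peptidase median was 1.07. The cause of these last differences was not tested.

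Limma-voom on the recovered counts, added after the data were seen, called SPCS2 nuclear (adjusted p-value 0.00279) and changed no other member's call. Leaving out each library, where the remaining library of a fraction is taken to vary like the other fraction, cytoplasmic calls stayed at 27 and nuclear calls were 3 or 4, with SPCS2 added without the shallower nuclear library. Without SEC61A2 and TUSC3, or with a mean over 500, the correlations with gene structure stayed negative. The table does not say which library carries which replicate number, so a replicate block was fitted with limma-voom for both possible pairings, chosen after the data were seen. It gave 27 cytoplasmic and 3 nuclear members with the deeper libraries paired, and 27 and 4 with the other pairing, where SPCS2 (-0.40) was added. The planned edgeR test was not run, since the deposited table holds no count column.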
